A study of Homo sapiens with 3 samples.

Results

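The genes examined here encode the machinery that takes a cell from G1 into S phase and copies its DNA. They are 48 genes chosen by symbol, among them the MCM helicase, the GINS complex, the replicative polymerases, the clamp and its loader, and the E2F and cyclin E genes, out of 19775 genes measured. Their RNA was measured in Rh-30, an established line of alveolar rhabdomyosarcoma (ARMS) in which the PAX3-FOXO1 fusion is present. Rh-30 cells received a control siRNA (siCont, siControl in the labels), an siRNA against PAX3-FOXO1 (siPF, siPAX3-FOXO1 in the labels) or an siRNA against B7-H3 (siB7-H3), each at 5 nM with Lipofectamine RNAiMAX in medium with 10% serum. Total RNA was taken 24 h later and hybridized to GeneChip arrays (U133 Plus 2.0), 1 for each condition and 3 in all. Each knockdown rests on 1 siRNA in 1 cell line. Replicate error could therefore not be measured, and no test between conditions was possible. Every difference given below lies between 2 arrays and describes those arrays.

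In G1, the origin recognition complex, CDC6 and CDT1 load the MCM2 to MCM7 ring onto replication origins. Cyclin E and its partner kinase, together with the release of E2F transcription factors from the retinoblastoma protein, then start S phase, in which CDC45 and GINS join the ring and turn it into the active helicase. Most genes of this machinery are known targets of E2F factors, so their RNA rises and falls with the cell cycle. In muscle precursors, leaving this cycle goes together with differentiation, and rhabdomyosarcoma cells keep cycling while they express muscle regulators.

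The values are probe set intensities on a linear scale, and the 2 arrays of a comparison were compared as a log2 difference. Where several probe sets read a gene, the one brightest on average over the 3 arrays (mean log2 intensity) was used. All 48 genes had a probe set, and all 48 passed the level rule, a mean over the 3 arrays at or over the 60th percentile of probe sets (an intensity of 132), as did 10220 of all genes. Intensities of the 48 probe sets lay between 305 and 20242. The lower expression of the target was seen for both siRNAs. CD276, the gene of B7-H3, had 1486 with siCont, 1381 with siPF and 362 with siB7-H3, and FOXO1, whose 3' part is in the fusion transcript, had 678, 249 and 650.0. PAX3, the other partner, had 381, 329 and 398. Another PAX3 probe set past the level rule gave 233, 194 and 154, the lowest of the 3 in siB7-H3. Of 8 muscle lineage markers, 7 passed the level rule. They differed in direction in siPF. In siB7-H3, 6 of the 7 were above siCont, against 53.1% of all genes, and MYF5 was below. Of the 6, FGFR4 was above by 0.051, and its other probe sets past the level rule were below. CHRNA1 had 6939 with siCont, 7871 with siPF and 8658 with siB7-H3. MYOG, a regulator of muscle differentiation, had 605, 3386 and 1269, which is 2.48 and 1.07 above siCont in log2, and DES and CHRND were above siCont by 0.71 and 0.88 in siPF. MYOD1 had 11471, 8688 and 13046, and MYF5 and FGFR4 were at -0.96 and -0.40 in siPF. The part of muscle differentiation in the values of the 48 genes was not tested. None of the 4 blood markers and none of the 4 liver and glia markers passed it, and of 6 epithelial and endothelial markers PECAM1 alone did, with 699, 621 and 910.1. In bulk RNA, fewer cells in S phase and less RNA of a gene per cell cannot be told apart.

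The promoters of these genes were searched for the E2F motif. The genes were chosen by symbol, but most genes of this machinery are known E2F targets, so the share with a match is no independent result. The motif was spelled TTTGGCGC, TTTCCCGC, TTTCGCGC or TTTGCCGC and searched on both strands in windows from 250 bases before to 50 bases after each annotated transcript start (RefSeq, GRCh38.p14). Of the 48 genes, 42 had at least 1 window in the table, and 24 of these 42 genes (57.1%) held a match, against 3.99% of the 27305 genes with a window. Counted by window, 25 of 54 (46.3%) held a match, against 3.31% of 35116 windows. CCNE2, GINS4, MCM4, MCM5, POLD3 and RPA2 had no window there. Of the 32 matches, 21 began within 100 bases before the start. The following 220 bases run 5′ to 3′ on the strand of the gene, from position -190 before the start to the 30th base of the transcript, with the E2F motif matches in capitals. E2F1, E2F2 and CDT1 are shown because they had the largest differences to siCont among the genes with a window, and MCM2, MCM6 and MCM7 because they are among the genes with the most matches. MCM3 held 2 as well and is not shown.
E2F1, chr20:33686356-33686575, minus strand: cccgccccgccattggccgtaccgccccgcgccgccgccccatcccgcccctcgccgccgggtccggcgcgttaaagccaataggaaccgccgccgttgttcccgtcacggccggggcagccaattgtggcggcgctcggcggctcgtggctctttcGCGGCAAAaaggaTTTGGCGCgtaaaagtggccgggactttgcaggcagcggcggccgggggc
E2F2, chr1:23531204-23531423, minus strand: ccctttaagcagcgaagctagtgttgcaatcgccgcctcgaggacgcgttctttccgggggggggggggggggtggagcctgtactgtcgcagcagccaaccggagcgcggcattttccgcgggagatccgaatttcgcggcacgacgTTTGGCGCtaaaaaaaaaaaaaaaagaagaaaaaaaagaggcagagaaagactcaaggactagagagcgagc
CDT1, chr16:88803599-88803818, plus strand: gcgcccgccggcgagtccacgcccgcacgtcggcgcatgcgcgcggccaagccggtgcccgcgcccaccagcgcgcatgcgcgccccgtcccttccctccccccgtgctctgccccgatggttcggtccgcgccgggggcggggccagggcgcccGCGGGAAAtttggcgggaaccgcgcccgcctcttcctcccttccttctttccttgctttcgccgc
MCM2, chr3:127598221-127598440, plus strand: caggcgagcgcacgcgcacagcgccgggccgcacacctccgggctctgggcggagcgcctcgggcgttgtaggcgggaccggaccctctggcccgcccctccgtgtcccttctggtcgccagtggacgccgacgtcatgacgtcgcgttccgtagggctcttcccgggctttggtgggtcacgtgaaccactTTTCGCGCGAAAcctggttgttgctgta
MCM6, chr2:135876414-135876633, minus strand: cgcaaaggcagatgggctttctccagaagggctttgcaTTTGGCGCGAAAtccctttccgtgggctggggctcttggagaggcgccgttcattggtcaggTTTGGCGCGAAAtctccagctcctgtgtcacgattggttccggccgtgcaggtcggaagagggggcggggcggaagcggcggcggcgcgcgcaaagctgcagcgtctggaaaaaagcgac
MCM7, chr7:100101368-100101587, minus strand: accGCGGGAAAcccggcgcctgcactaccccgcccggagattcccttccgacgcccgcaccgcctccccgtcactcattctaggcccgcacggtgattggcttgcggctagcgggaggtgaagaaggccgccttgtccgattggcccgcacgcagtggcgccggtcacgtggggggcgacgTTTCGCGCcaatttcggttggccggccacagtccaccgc
In MCM6, matches on opposite strands overlapped in a run of 12 bases that occurred at 2 places, and MCM2 held such a run just after its start. E2F1, the gene of an E2F factor itself, held 2 separate matches. CDT1, which brings the MCM ring to origins, held 1 match at 35 bases before its start, and E2F2 held 1 at 42 bases. MCM7 had 3 annotated starts in the table, and the window shown is the one that held matches. A match is a stretch of letters and not a shown binding site.

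**Figure D1:**
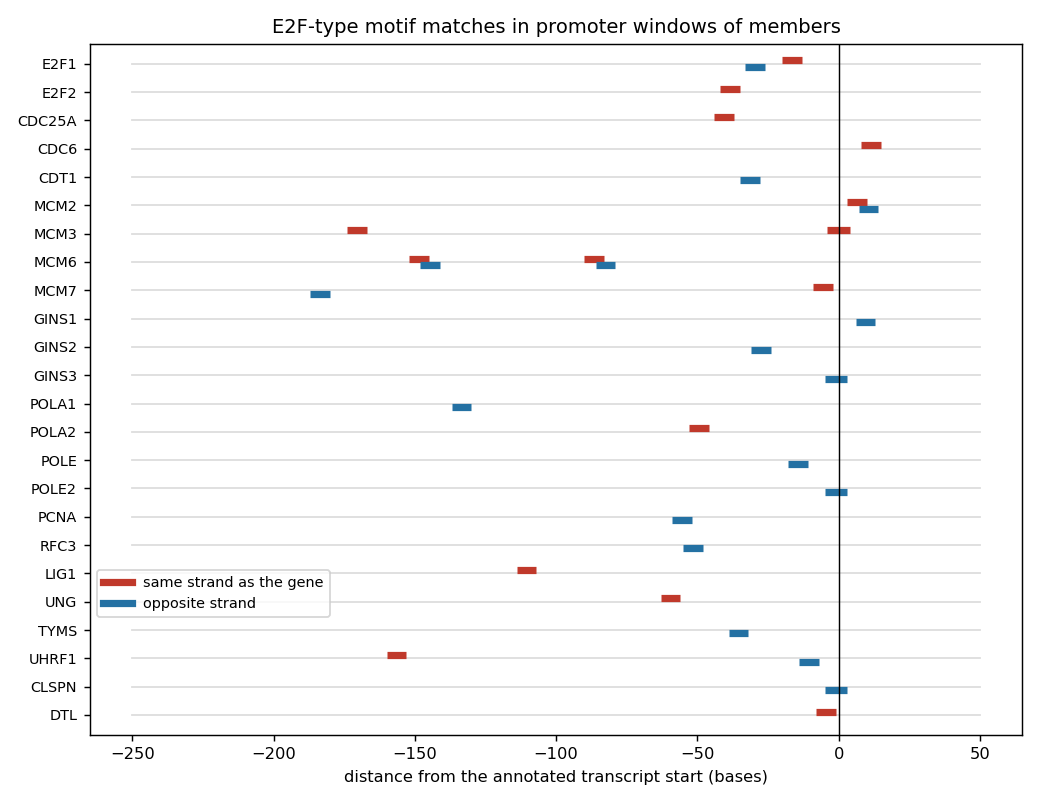
Positions of E2F motif matches in the windows of the 24 genes that held one, as the distance in bases from each window's own transcript start (horizontal axis). Red bars are matches on the strand of the gene, blue bars are on the opposite strand, and 21 of 32 matches begin within 100 bases before the start.

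Other promoter motifs were searched on both strands as well. The CCAAT box (CCAAT) was found in 59.3% of the 54 windows, against 34.6% of all windows, and the GC box (GGGCGG) in 74.1%, against 45.0%. The CHR element (TTTGAA or TTTAAA), which is known from genes of mitosis, was found in 14.8% of these windows, against 24.0% of all windows and 74.6% of 59 windows of a list of G2/M and mitosis genes. E2F matches were found in 6.78% of windows of that G2/M list, in 10.8% of those of G1/S regulators and in 26.5% of those of further replication genes. For these lists in the same order, the CCAAT box was found in 67.8%, 32.4% and 45.6% of windows. The GC box was found in 74.6%, 70.3% and 83.8%, so it was about as frequent there as in the 54 windows. The 48 genes lie on 20 chromosomes, with at most 5 on one.

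Few of the 48 genes lay past the fold thresholds, which is near what the shares of all genes give for a list of this length. None was past 2-fold in siPF, where 1.92% of all genes that passed the level rule were (0.812% lower and 1.11% higher). None was in siB7-H3, where 1.24% of all genes were (0.607% lower and 0.636% higher). At 1.5-fold, POLD3 was higher in siPF (5.09% of all genes) and no gene was lower (4.02%). In siB7-H3, E2F1 and RPA2 were lower (3.18% of all genes) and POLD3 was higher (3.86%). Within 1.2-fold of siCont in both knockdowns lay 30 of the 48 genes, against 50.1% of all genes that passed the level rule. All genes here reach down to an intensity of 132, whereas the 48 genes lay at 305 or over, so the 2 groups differ in brightness. The directions of the 48 genes were less even than those of all genes. In siPF, 33 of 48 were above siCont and 15 below, against 52.7% and 47.3% of all genes, with a median log2 difference of 0.059, against 0.018. In siB7-H3, 38 of 48 were below siCont and 10 above, against 46.9% and 53.1% of all genes, with a median of -0.12, against 0.018. These comparisons share the siCont array, and siPF was also set directly against siB7-H3. Here 39 of 48 genes were higher in siPF and 9 lower, against 50.8% and 49.2% of all genes, with a median of 0.17, against 0.0037. Of the 3 arrays, siB7-H3 was the lowest for 34 of 48 genes, against 30.3% of all genes, and siPF the highest for 32, against 35.4%. Genes of one pathway are not independent, and 1 array per condition cannot tell a difference between conditions from one between cultures, RNA preparations or arrays.

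**Figure D2:**
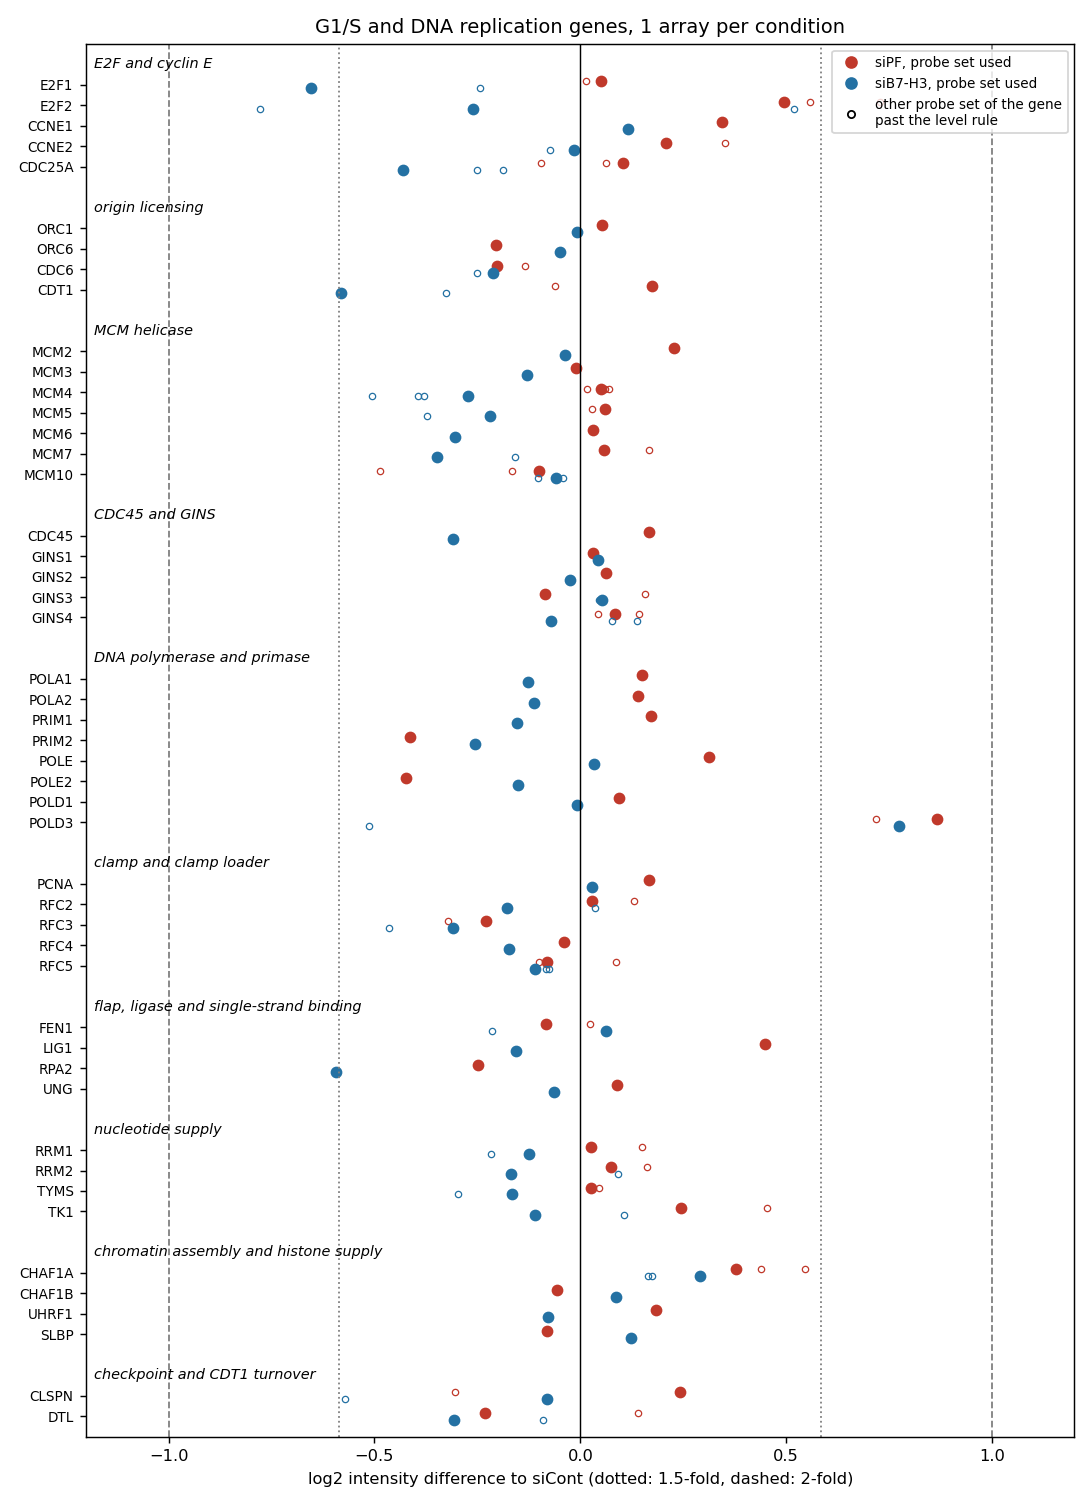
Log2 intensity difference to siCont (horizontal axis) for each of the 48 genes, grouped by role, with siPF in red and siB7-H3 in blue. Filled points are the probe set used, open points are other probe sets of the gene past the level rule, and the lines mark 1.5-fold and 2-fold. Most blue points lie left of 0, with E2F1 and RPA2 past 1.5-fold, and POLD3 stands apart on the right at its filled points.

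The precision was judged from genes with several probe sets. They number 24 among the 48, with 56 probe sets past the level rule. Probe sets of one gene share RNA and array, so their spread leaves out the spread between cultures. It is a spread between probe sets and not the measurement error of an array. The SD of the log2 difference between probe sets of one gene, pooled over these genes, was 0.13 for siPF against siCont, 0.26 for siB7-H3 against siCont and 0.25 for siPF against siB7-H3. Over the 5169 genes of the array with several such probe sets it was 0.27, 0.26 and 0.24, so the lower value for siPF among the 48 is not general. Many differences of single genes given here are below these SDs, and their direction describes the probe set and arrays read. In siPF all probe sets of a gene were above siCont for 14 of the 24 genes, all below for 3 and mixed for 7. In siB7-H3 all were below siCont for 15, all above for 2 and mixed for 7. In siPF against siB7-H3 all were higher in siPF for 19 genes, lower for 1 and mixed for 4. Among the 5169 genes of the array with several such probe sets, 1446 were all above siCont in siPF, 1300 all below it in siB7-H3 and 1424 all higher in siPF than in siB7-H3.

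Of the 5 E2F, cyclin E and CDC25A genes, the E2F genes were the furthest apart between the knockdown arrays. E2F1, an activator of S phase genes, read 1020 with siCont, 1056 with siPF and 648 with siB7-H3. It was thus alike in siCont and siPF and lower in siB7-H3 (0.050 and -0.65 on the log2 scale). Its other probe set gave 757, 764 and 639, the same order with a smaller difference of -0.24 in siB7-H3. E2F2, another activator, had 1568, 2211 and 1310, the highest of the 3 in siPF. Its log2 differences were 0.50 in siPF and -0.26 in siB7-H3. A dimmer E2F2 probe set gave 246, 362 and 143, in the same order, and the dimmest gave 132, 218 and 189, which was above siCont on both knockdown arrays. CDC25A, the phosphatase that removes inhibitory phosphates from the cyclin E kinase, had 1846, 1982 and 1369, with a log2 difference of -0.43 in siB7-H3. All 3 CDC25A probe sets were lower in siB7-H3, with -0.43, -0.25 and -0.19. The cyclin E genes were not lower in this way. CCNE1 had 1712, 2173 and 1854, and CCNE2 had 1363, 1573 and 1349, both highest in siPF.

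Origin licensing genes differed from each other. CDT1 had 1804 with siCont, 2034 with siPF and 1206 with siB7-H3, a siB7-H3 value that differed by -0.58 (log2), just short of 1.5-fold. Its other probe set gave 455, 436 and 363, lower in siB7-H3 by 0.33 on the log2 scale, and not higher in siPF. CDC6, the ATPase that recruits CDT1 and the MCM ring, had 2953, 2568 and 2549, lower on both knockdown arrays at both of its probe sets. ORC1 and ORC6, subunits of the origin recognition complex, had log2 differences of 0.053 and -0.21 in siPF and -0.0072 and -0.05 in siB7-H3. DTL, which with a ubiquitin ligase targets CDT1 for degradation in S phase, had 4916, 4187 and 3976, but another probe set gave 2275, 2504 and 2136. CLSPN, which encodes claspin, a mediator of the replication checkpoint, had 781, 924 and 738. Its other probe set past the level rule gave 270.1, 219 and 182, so siPF was above siCont at one and below it at the other.

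At the probe sets used, the MCM genes were all below siCont in siB7-H3 and close to it in siPF. The log2 differences of the 7 genes in siB7-H3 ran from -0.35 to -0.037, with a median of -0.22, and in siPF from -0.099 to 0.23. MCM7 had 13355 with siCont, 13908 with siPF and 10495 with siB7-H3, and its other probe set 8062, 9055 and 7220. MCM6 had 6230, 6362 and 5047, and MCM5 had 3602, 3753 and 3097. For these 3 genes the siB7-H3 array was the lowest and siPF the highest. MCM4 had 4 probe sets past the level rule, and all were lower in siB7-H3, by 0.27 to 0.51 on the log2 scale, and above siCont by 0.015 to 0.069 in siPF. MCM2 had 8157, 9546 and 7951, and MCM3 had 5263, 5228 and 4815. In siPF, MCM2 was the MCM gene furthest from siCont at the probe sets used, with 0.23. MCM10, which is no part of the ring but acts when it is activated, had 2168, 2023 and 2082, lower on both knockdown arrays at its 3 probe sets. In siPF these probe sets were at -0.099, -0.17 and -0.49 (log2), the last at the dimmest.
CDC45, which joins the ring to make the active helicase, had 1959, 2199 and 1581, lower with siB7-H3 by 0.31 (log2). The GINS genes, whose products join it there, stayed closer to siCont. GINS1, GINS2, GINS3 and GINS4 lay between -0.085 and 0.084 in siPF and between -0.071 and 0.053 in siB7-H3. Other probe sets of GINS3 in siPF (0.16) and of GINS4 in siB7-H3 (0.078 and 0.14) lay on the other side of siCont. GINS2 also had a dim probe set that did not pass the level rule, with 135 with siCont, 78.6 with siPF and 77.2 with siB7-H3.

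Of the DNA polymerase genes, POLD3 had the largest difference of all 48 genes. POLD3, an accessory subunit of polymerase delta, had 1562 with siCont, 2845 with siPF and 2672 with siB7-H3, which is 0.87 and 0.77 above siCont in log2. Both knockdown arrays lay above the shared siCont array. Its other probe set gave 201, 331 and 141, so the higher level in siPF was seen at both probe sets, whereas in siB7-H3 it was seen at one and the other gave -0.51. POLD1, the catalytic subunit of the same polymerase, did not share this, with 1043, 1114 and 1037. POLE, the catalytic subunit of polymerase epsilon, had 567, 704 and 580, and POLE2, its second subunit, had 1859, 1386 and 1672. These subunits thus lay on opposite sides of siCont in siPF, with 0.31 and -0.42, and had 1 probe set each. The primase subunits PRIM1 and PRIM2, which start each new strand with polymerase alpha, also differed in siPF. PRIM1 had 3200, 3602 and 2874, and PRIM2 had 587, 441 and 491. A further 4 probe sets named with PRIM2 and its pseudogene PRIM2BP together were not used. POLA1 and POLA2, subunits of polymerase alpha, were 0.15 and 0.14 above siCont in siPF and -0.13 and -0.11 in siB7-H3.

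PCNA, the sliding clamp that holds polymerases on DNA, had 9467 with siCont, 10626 with siPF and 9656 with siB7-H3, so siB7-H3 was level with siCont. The genes of the clamp loader were mostly lower in siB7-H3, at -0.18 for RFC2, -0.31 for RFC3, -0.17 for RFC4 and -0.11 for RFC5. RFC3 had 4908, 4186 and 3962, and a second probe set 2975, 2381 and 2156, lower on both knockdown arrays. In siPF the RFC5 probe sets were mixed, at -0.081, 0.087 and -0.10. For RFC2 the second probe set gave 0.036 in siB7-H3, on the other side of siCont. RPA2, a subunit of the protein that coats single-stranded DNA, had 4673, 3933 and 3100, -0.25 and -0.59 from siCont in log2. It was lower on both knockdown arrays, and its single probe set gave no check. LIG1, the ligase that joins Okazaki fragments, had 1005, 1372 and 902, the highest in siPF with a log2 difference of 0.45. FEN1, the flap endonuclease of the same step, had 6258, 5906 and 6535, but its second probe set gave 4752, 4831 and 4098, on the other side of siCont in both knockdowns. UNG, which removes uracil from DNA, had 3451, 3668 and 3299.

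The 4 genes of nucleotide supply were above siCont in siPF and below it in siB7-H3 at the probe sets used, with small steps. TYMS, which makes thymidylate, had 19866 with siCont, 20242 with siPF and 17711 with siB7-H3. RRM1 and RRM2, the subunits of ribonucleotide reductase, had log2 differences of 0.026 and 0.074 in siPF and -0.13 and -0.17 in siB7-H3, but a second RRM2 probe set gave 0.091 in siB7-H3. TK1, the thymidine kinase of S phase, had 3304, 3916 and 3062, and its other probe set 2316, 3169 and 2494. TK1 was thus higher in siPF at both probe sets and on either side of siCont in siB7-H3. Of the 4 genes of chromatin and histone supply, 1 was below siCont in siB7-H3. CHAF1A, the large subunit of chromatin assembly factor 1, had 1343, 1746 and 1642, above siCont on both knockdown arrays at all 3 probe sets past the level rule. CHAF1B had 317, 305 and 337, and SLBP, which binds the stem-loop of histone mRNA, had 6409, 6056 and 6982. The one below was UHRF1, which helps to copy DNA methylation, with 12995, 14754 and 12304.

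**Figure D3:**
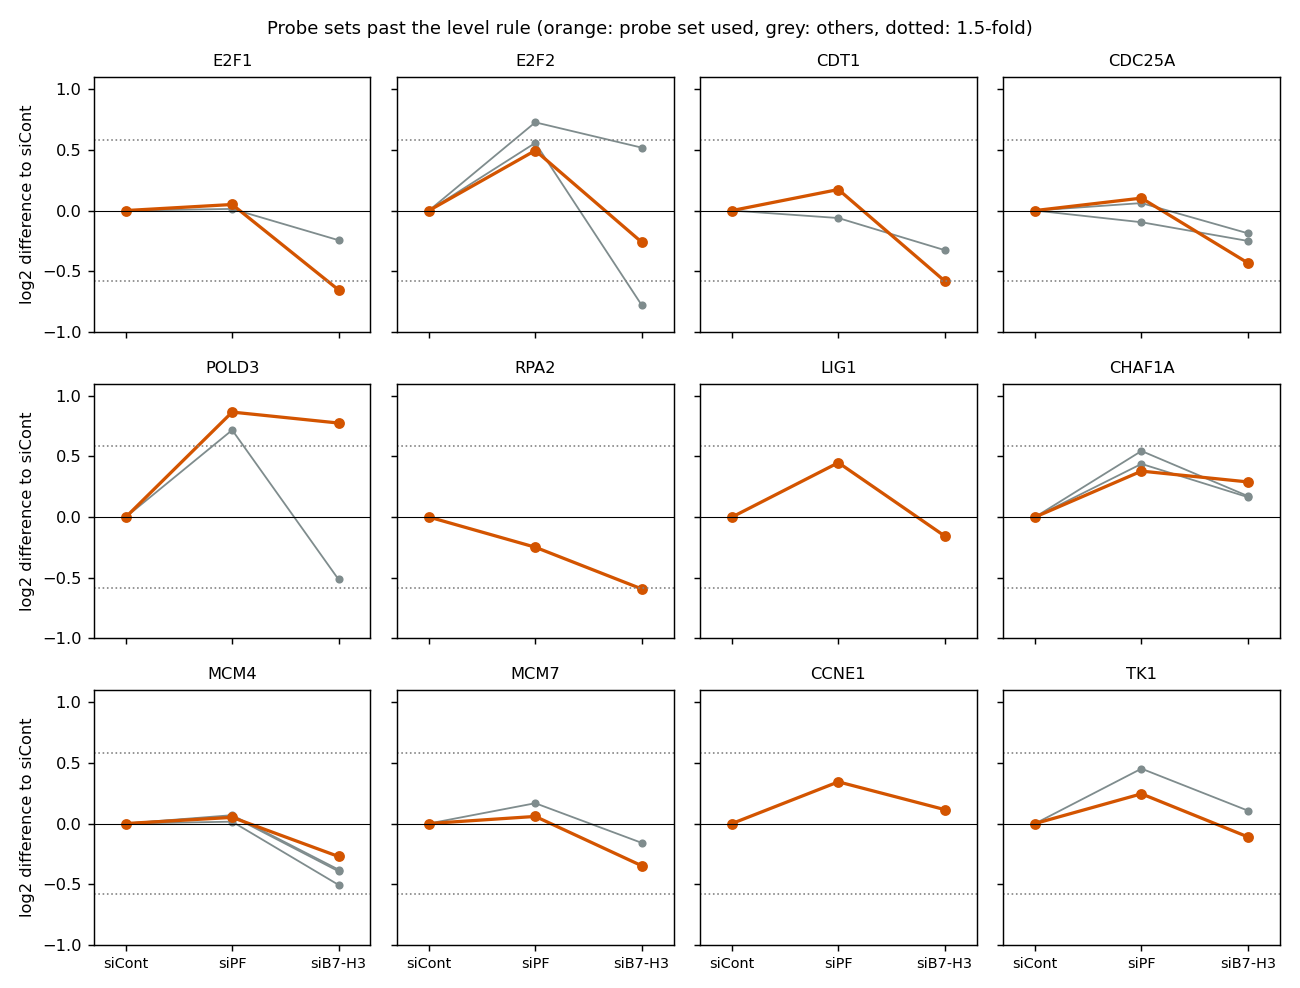
Log2 difference to siCont (vertical axis) on the 3 arrays (horizontal axis) for every probe set past the level rule of 12 genes, with the probe set used in orange and others in grey. The MCM4 and MCM7 probe sets run together and end below 0 in siB7-H3, whereas the POLD3 and E2F2 probe sets part in siB7-H3, and RPA2, LIG1 and CCNE1 have 1 probe set each.

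Set directly against each other, the knockdown arrays differed past 1.5-fold in 4 of the 48 genes, all higher in siPF (3.33% of all genes were higher and 3.17% lower). None was past 2-fold, where 1.31% of all genes were (0.665% lower and 0.646% higher). E2F2 was 1.69-fold higher in siPF than in siB7-H3, CDT1 1.69-fold, E2F1 1.63-fold and LIG1 1.52-fold. Other probe sets past the level rule gave log2 differences of 0.26 for CDT1 and 0.26 for E2F1, short of 1.5-fold. Those of E2F2 gave 0.21 and 1.34, and LIG1 had 1 probe set. At the probe sets used, the larger part lay in the lower siB7-H3 value for E2F1 and CDT1, and in the higher siPF value for E2F2 and LIG1. A dimmer E2F2 probe set had the larger part in siB7-H3, with -0.78 from siCont against 0.56 in siPF. CDC25A followed with 1.45-fold and CDC45 with 1.39-fold. The genes lower in siPF than in siB7-H3 were 9, with POLE2 at -0.27 and SLBP at -0.21 on the log2 scale as the lowest. Among the 24 genes whose window held an E2F match, 21 were higher in siPF, with a median of 0.26. Among the 18 without a match 12 were, with a median of 0.096, and of all genes 50.8% were. Against siCont the medians with and without a match were closer, at 0.075 and 0.028 in siPF and -0.14 and -0.084 in siB7-H3. Below siCont in siB7-H3 were 20 of the 24 and 13 of the 18, against 46.9% of all genes. This split used the annotated starts and the listed motif spellings alone and left out the genes with no window. The genes without a match can therefore include E2F targets, and the split was not tested.

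**Figure D4:**
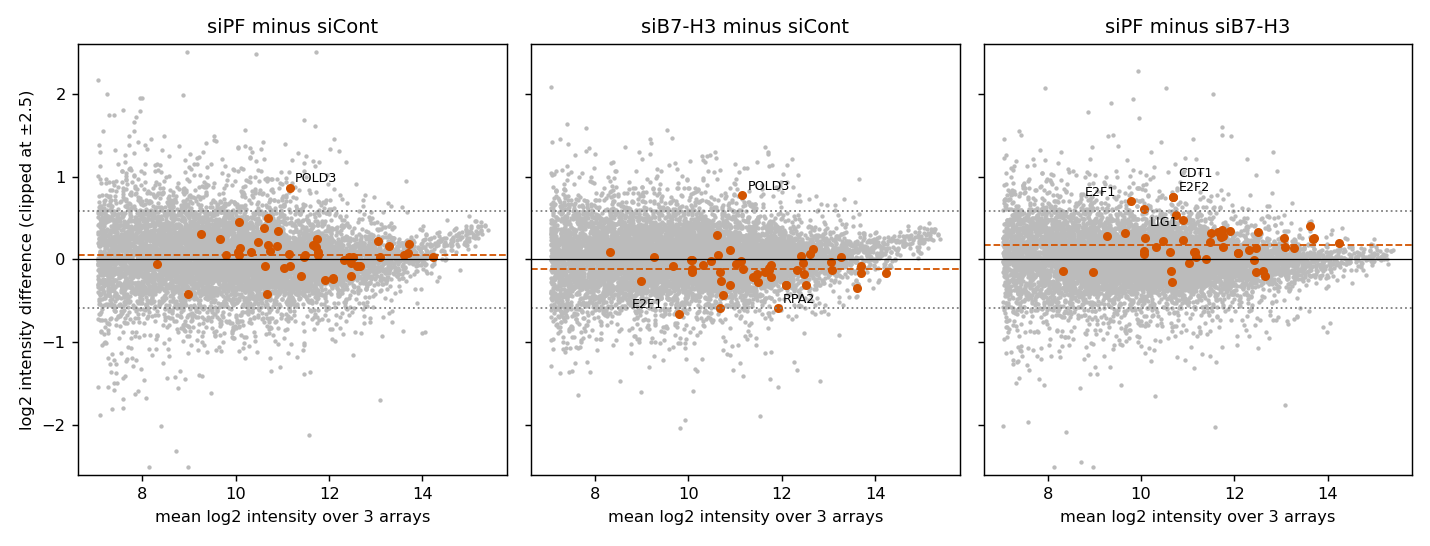
Log2 intensity difference (vertical axis, clipped at 2.5) against the mean log2 intensity over the 3 arrays (horizontal axis) for the 10220 genes that passed the level rule (grey) and the 48 genes (orange) in 3 comparisons. Dotted lines mark 1.5-fold and the dashed line marks the median of the 48 genes, which is 0.059, -0.12 and 0.17 from left to right.

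The rest of the pathway was examined through other lists. Of 50 further measured replication genes, among them subunits of ORC, RPA and the polymerases not named above, the median log2 difference was -0.016 in siPF and -0.13 in siB7-H3. DNMT1, which copies DNA methylation to the new strand, was past 2-fold in siPF, where 1.11% of all genes were higher. It had 2576 with siCont, 5207 with siPF and 4755 with siB7-H3. DBF4B, a regulatory subunit of the CDC7 kinase, was past 2-fold in siPF against siB7-H3, where 0.665% of all genes were lower. It had 330.1, 198 and 449, a log2 difference of -1.18. Its other probe set past the level rule gave the opposite direction, with 178, 256 and 149. Of 55 G2/M and mitosis genes, 37 (67.3%) were below siCont in siB7-H3 and 25 (45.5%) in siPF, against 46.9% and 47.3% of all genes, with medians of -0.087 and 0.021. Against siB7-H3, 43 of these 55 were higher in siPF, with a median of 0.12. So were 34 of the 50 further replication genes, with a median of 0.12. Of all genes 50.8% were higher, with a median of 0.0037. Both lists thus lay on the same side of 0 as the 48 genes in that comparison, and no difference between the lists could be tested.
Upstream regulators of the G1/S step differed by gene. Of 28 regulators that passed the level rule, 3 were lower and 1 higher past 1.5-fold in siPF, where 4.02% and 5.09% of all genes were. In siB7-H3, 3 were lower and none higher, where 3.18% and 3.86% of all genes were. Apart from CDK2, these were named after their values were seen. SKP2, the ubiquitin ligase subunit that marks the CDK inhibitor p27 for degradation, had 21340 with siCont, 11624 with siPF and 19779 with siB7-H3, and was lower in siPF at its 3 probe sets. In siB7-H3 its other probe sets were lower as well, at -0.88 and -0.44. E2F7, an E2F repressor, had 3985, 2602 and 3416, and E2F8, another repressor, had 538, 909 and 456. CDK2, the partner kinase of cyclin E, had 3731, 4248 and 2373, and a second probe set gave 2416, 2632 and 888. CDK6, a partner of D cyclins, had 12596, 10644 and 6667 and was lower in siB7-H3 at its 7 probe sets, by 0.57 to 1.13 on the log2 scale. FBXW7, which marks cyclin E for degradation, had 679, 393 and 448 and was lower on both arrays.
The remaining regulators chosen by name were within 1.5-fold of siCont at the probe sets used. CCND1 had 3816, 2823 and 3935, CCND2 had 19546, 27239 and 24500, and CCND3 had 5302, 6169 and 5375. A dimmer CCND2 probe set gave 1162, 2222 and 2196, past 1.5-fold on both knockdown arrays, and another CCND1 probe set gave -0.64 in siPF. CDK4 had 35494, 46891 and 43552, where the brightest probe sets of the arrays reached 37580, 49602 and 46400.1. The CDK inhibitor genes CDKN1A and CDKN1B had log2 differences of 0.00096 and 0.063 in siPF and -0.21 and -0.29 in siB7-H3. RB1, the gene of the retinoblastoma protein, had 2497, 1880 and 1929. Its other probe set past the level rule gave 236, 226 and 265, close to siCont in siPF and above it in siB7-H3. MYCN had 2794, 3373 and 3642.

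**Figure D5:**
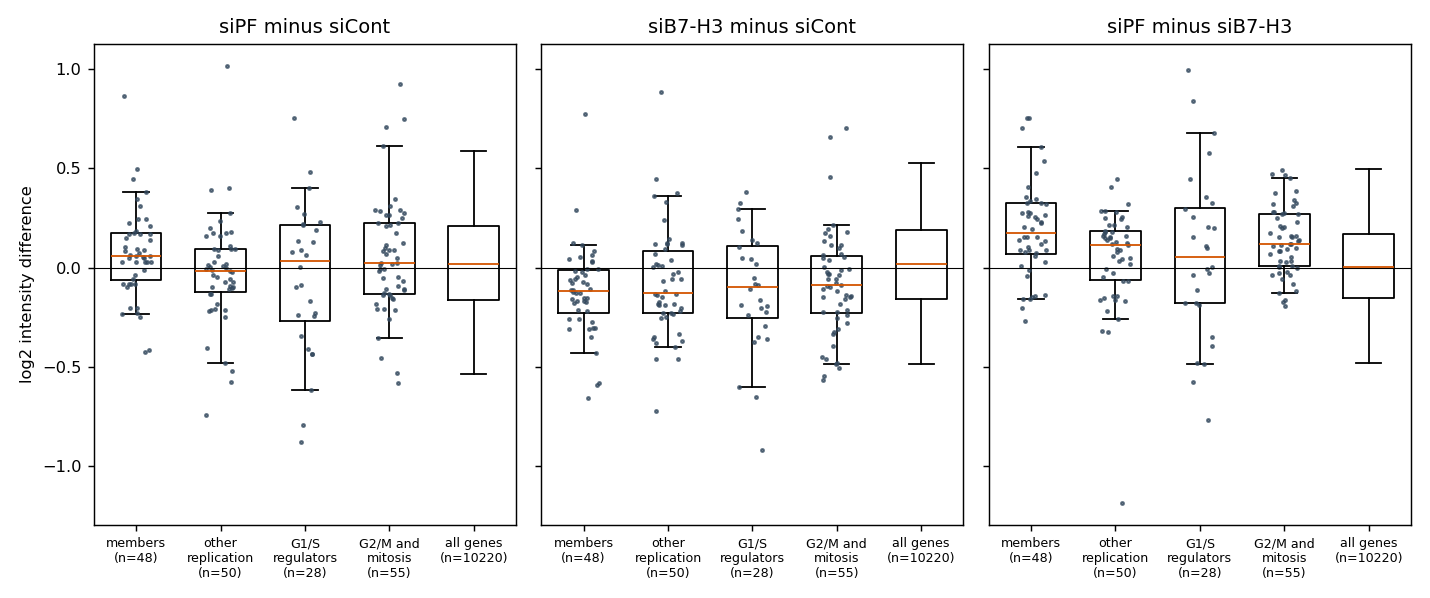
Log2 intensity differences (vertical axis) of the 48 genes (members), 3 other lists and all genes that passed the level rule, in 3 comparisons. Boxes span the quartiles with the median in orange, whiskers reach the 5th and 95th percentiles, and points are single genes. The medians of all 4 lists lie below 0 in siB7-H3 minus siCont and above 0 in siPF minus siB7-H3. In the latter, the G1/S regulators have a median of 0.051, with 15 of 28 above 0, against 50.8% of all genes.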

How the data were processed

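Expression was measured in Rh-30 on 3 U133 Plus 2.0 arrays, 1 for each siRNA. The authors deposited a linear intensity for every probe set, and their processing notes name Affymetrix Expression Console 1.4.1. How probes were summarized is not given in the sources used here. After trimming 2% of the values at either end, the mean was 500.1 on each array, so the arrays had been scaled to a common level. The number of arrays limits the precision.

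The deposited intensities were taken to log2 with no pseudocount. Of 54675 probe sets, 41091 carried 1 gene in the platform table, and older symbols were updated through gene IDs. Those named with several genes (1801) or none were not used. The brightest probe set on average stood for a gene. The level rule was set on the mean over the 3 arrays. No test was made. The genes, lists and thresholds were chosen with earlier results of these data known. All 48 genes are named, and of the other replication and cell cycle lists those past 2-fold and 9 regulators; further genes are marked where named. Alternatives covered the choice of probe set, the scaling, the level rule and a floor. Sequences are from RefSeq (GRCh38.p14). Python 3.11.15, numpy 2.4.6, pandas 2.3.3 and matplotlib 3.10.9 were used, after a test of the scripts on simulated data.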

Additional observations from a re-analysis of the deposited data

How the results depend on the processing

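Medians of the 48 genes kept their sign under all 8 alternatives, including 1 chosen after seeing the data, in which differences were centred on genes of like level. They ranged from 0.035 to 0.064 for siPF against siCont, from -0.13 to -0.091 for siB7-H3 against siCont and from 0.15 to 0.19 for siPF against siB7-H3. Some alternatives could not change the values of the 48 genes, because all of these lay above the cut. They were dropping the level rule, setting it on the higher of the 2 arrays, and the floor. With differences centred on genes of like level, 37 of 48 genes were below siCont in siB7-H3 and 17 in siPF. Without probe sets that can bind several transcripts, 34 genes could be measured past the level rule, of which 25 were below siCont in siB7-H3 and 11 in siPF. The other lists were recomputed against siCont alone. Their medians in siB7-H3 stayed below 0, whereas those in siPF changed sign. The latter ran from -0.04 to 0.012 for further replication genes, from -0.014 to 0.055 for regulators and from -0.054 to 0.027 for G2/M genes. When all probe sets of a gene were combined by their median, which takes in dim probe sets, 46 genes passed the level rule. Then 2 genes were higher at 1.5-fold in siPF, 1 was lower and 1 was past 2-fold in siB7-H3, and 1 was lower at 1.5-fold in siPF against siB7-H3. POLD3 was reversed at its other probe set in siB7-H3, with -0.51. Of the recomputed counts and medians, these 4 moved and 140 stayed within 1.5 times or 0.1 (log2) of the reported value. The 140, like the 1180 single-gene values below, include ones from the settings that could not change the 48 genes. Of the recomputed differences of single genes, 73 moved by at least 0.25 (log2), 1180 moved by less and 1 was reversed, and the 73 lay in settings that took other or several probe sets of a gene. No paired analysis was possible because each condition had 1 array.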
